A study of Arabidopsis thaliana with 6 samples.

Results

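The regions described here are the differentially methylated regions (DMRs) of Arabidopsis thaliana endosperm that lie in the pericentromeres, the heterochromatin around the centromere of each chromosome. A DMR was counted as pericentromeric when its midpoint lay at 11.5 to 17.7 Mb of chromosome 1, 1.1 to 7.2 Mb of chromosome 2, 10.3 to 17.3 Mb of chromosome 3, 1.5 to 6.3 Mb of chromosome 4 or 9 to 16 Mb of chromosome 5 (TAIR10 build). This rule used position only, and it took 4188 of the 8950 DMRs in 6 lists, of which 3143 were CHH DMRs and 1045 were CG DMRs. The other 4762 DMRs lay on the arms. In CHH, H stands for A, C or T.

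Whole-genome bisulfite sequencing was carried out on endosperm, which feeds the embryo in the seed, taken by dissection 7 days after pollination. The 6 libraries fall into 3 genotypes of 2 libraries each, and all endosperm was a hybrid of a Ler mother and a Col-0 father. In mat nrpd1+/- the Ler mother was nrpd1-/-, in pat nrpd1+/- the Col-0 father was nrpd1-/-, and in WT both parents carried NRPD1. The mutant allele was nrpd1a-4, a T-DNA insertion in Col-0 that had been introgressed 4 times into Ler, so that Ler nrpd1-/- mothers can keep Col-0 sequence. The authors pooled both libraries of each genotype, so each DMR has 1 difference per comparison and no replicate value, and the depth of the libraries is unknown.

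NRPD1 encodes the catalytic, largest subunit of Pol IV, a plant RNA polymerase. In RNA-directed DNA methylation, Pol IV transcripts are made double-stranded by RDR2 and cut by DCL3 into small RNAs that guide AGO4 and the methyltransferase DRM2, mainly to transposable elements on the arms and at heterochromatin edges. In the pericentromeres, which are rich in transposable elements and poor in expressed genes, CHH methylation also depends on CMT2 and the chromatin remodeller DDM1. CG methylation is copied at DNA replication by MET1.

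The sequences of the members with the most negative or most positive difference from WT are printed because they show the kind of sequence behind the values. Each is the central 300 bases of its DMR, top strand, from the RefSeq copy of the genome (TAIR10.1). In the CHH DMRs capitals mark every CHH cytosine, as C on the top strand and as G where the cytosine is on the other strand. In the CG DMRs capitals mark CG dinucleotides. The CHH DMR at chr2:3134301-3134600 had the most negative difference of mat nrpd1+/- from WT, and all of its 300 bases are shown, with 66 CHH cytosines.
CHH loss in mat nrpd1+/-: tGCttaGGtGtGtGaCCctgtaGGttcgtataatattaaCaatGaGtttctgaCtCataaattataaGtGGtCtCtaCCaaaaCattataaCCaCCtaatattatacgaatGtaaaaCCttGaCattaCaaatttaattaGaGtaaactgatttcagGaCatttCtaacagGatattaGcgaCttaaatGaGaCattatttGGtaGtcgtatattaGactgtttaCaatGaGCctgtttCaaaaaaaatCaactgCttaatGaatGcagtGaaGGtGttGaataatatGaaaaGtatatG
The CHH DMR at chr1:13659701-13660200 had the most positive pericentromeric difference of mat nrpd1+/- from WT. Its central bases, chr1:13659801-13660100, hold 92 CHH cytosines and also fall in the most positive CHH DMR of pat nrpd1+/-, so they are shown once.
CHH gain in mat nrpd1+/- and pat nrpd1+/-: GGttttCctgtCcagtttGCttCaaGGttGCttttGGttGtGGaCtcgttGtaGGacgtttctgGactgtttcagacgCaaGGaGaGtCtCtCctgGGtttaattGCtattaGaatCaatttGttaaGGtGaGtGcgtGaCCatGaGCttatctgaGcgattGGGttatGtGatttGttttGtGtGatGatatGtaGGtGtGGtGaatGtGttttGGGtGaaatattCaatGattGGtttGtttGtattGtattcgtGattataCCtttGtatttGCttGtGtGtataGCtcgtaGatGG
The most negative pericentromeric CHH DMR of pat nrpd1+/- lay at chr5:14214401-14214800, and chr5:14214451-14214750 holds 49 CHH cytosines in sequence of low GC content.
CHH loss in pat nrpd1+/-: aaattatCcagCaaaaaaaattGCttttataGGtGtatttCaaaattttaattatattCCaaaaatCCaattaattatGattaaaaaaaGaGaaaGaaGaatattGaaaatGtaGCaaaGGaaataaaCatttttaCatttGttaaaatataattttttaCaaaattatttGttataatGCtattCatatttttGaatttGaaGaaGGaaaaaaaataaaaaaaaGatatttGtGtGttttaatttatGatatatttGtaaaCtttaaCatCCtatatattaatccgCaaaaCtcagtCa
Among pericentromeric CG DMRs of mat nrpd1+/-, the most negative lay at chr4:5539101-5539600 and the most positive at chr4:1657201-1658500. The bases chr4:5539201-5539500 and chr4:1657701-1658000 are shown, and the gain is the richer in CG.
CG loss in mat nrpd1+/-: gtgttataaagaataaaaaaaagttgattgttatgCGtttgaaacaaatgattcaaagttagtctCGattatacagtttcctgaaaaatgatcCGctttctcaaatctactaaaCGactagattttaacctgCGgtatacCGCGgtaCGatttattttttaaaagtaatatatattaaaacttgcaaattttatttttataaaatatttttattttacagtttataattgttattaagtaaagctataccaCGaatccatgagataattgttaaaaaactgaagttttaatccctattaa
CG gain in mat nrpd1+/-: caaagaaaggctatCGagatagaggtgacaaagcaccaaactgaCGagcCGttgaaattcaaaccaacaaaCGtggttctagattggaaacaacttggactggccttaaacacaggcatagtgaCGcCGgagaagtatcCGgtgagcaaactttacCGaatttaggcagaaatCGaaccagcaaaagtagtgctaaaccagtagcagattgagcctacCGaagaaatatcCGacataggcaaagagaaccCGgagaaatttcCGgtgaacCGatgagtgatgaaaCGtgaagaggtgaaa
In pat nrpd1+/- the most negative CG DMR lay at chr5:9601301-9601800 and the most positive at chr5:14012701-14013300. The bases chr5:9601401-9601700 and chr5:14012851-14013150 are shown.
CG loss in pat nrpd1+/-: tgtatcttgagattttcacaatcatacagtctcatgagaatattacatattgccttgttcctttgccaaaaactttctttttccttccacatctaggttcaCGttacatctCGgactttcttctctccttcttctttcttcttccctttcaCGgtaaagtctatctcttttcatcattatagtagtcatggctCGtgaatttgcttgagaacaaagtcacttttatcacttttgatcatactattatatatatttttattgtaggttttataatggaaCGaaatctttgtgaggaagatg
CG gain in pat nrpd1+/-: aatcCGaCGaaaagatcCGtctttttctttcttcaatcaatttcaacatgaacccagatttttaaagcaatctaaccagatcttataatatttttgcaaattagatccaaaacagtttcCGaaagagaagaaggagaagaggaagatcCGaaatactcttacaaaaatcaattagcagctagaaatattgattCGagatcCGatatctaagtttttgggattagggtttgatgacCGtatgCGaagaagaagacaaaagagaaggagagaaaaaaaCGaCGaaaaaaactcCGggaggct

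The pericentromeres as defined span 31.1 Mb, which is 26.1% of the 119 Mb of nuclear sequence. The authors kept only sequence in which the fraction of maternal reads was near that of the endosperm genome, and all densities here are per Mb retained in both genotypes compared. Of the pericentromeres, 80.1% was retained in mat nrpd1+/-, 81.0% in pat nrpd1+/- and 80.4% in WT. On the arms 74.1% was retained in mat nrpd1+/-, 95.8% in pat nrpd1+/- and 95.9% in WT, and the arms of chromosome 1 were the least retained in mat nrpd1+/-, at 43.1%. The mean maternal fraction in retained pericentromeres was 0.626 in mat nrpd1+/-, 0.632 in pat nrpd1+/- and 0.628 in WT, and on the arms it was 0.639 in mat nrpd1+/-, 0.643 in pat nrpd1+/- and 0.636 in WT. Retention thus varied little between genotypes in the pericentromeres and more on the arms.

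To ask whether loss of Pol IV in a parent altered CHH methylation to the same extent in pericentromeres and on arms, DMRs were counted per retained Mb. CHH DMRs were denser in the pericentromeres in all 3 comparisons. Between mat nrpd1+/- and WT there were 1144 pericentromeric and 1090 arm CHH DMRs, or 46.7 per Mb in the pericentromeres and 16.8 per Mb on the arms, a ratio of 2.78 (95% interval 2.56 to 3.03, adjusted p = 4.27e-124, exact binomial test). DMRs took up 1.71% of the retained 100-bp bins of the pericentromeres and 0.606% of those of the arms, and 0.908% of all retained bins. Between pat nrpd1+/- and WT the 904 pericentromeric and 1152 arm CHH DMRs came to 36.8 per Mb in the pericentromeres and 13.7 per Mb on the arms, a ratio of 2.68 (2.46 to 2.93, adjusted p = 3.55e-101, exact binomial test). They took up 1.36% of pericentromeric bins and 0.507% of arm bins, and 0.700% of all. The comparison of mat nrpd1+/- with pat nrpd1+/- gave 1095 pericentromeric and 1077 arm CHH DMRs, or 44.7 per pericentromeric Mb and 16.6 per arm Mb, a ratio of 2.69 (2.47 to 2.93, adjusted p = 2.42e-113, exact binomial test). Here 1.65% of pericentromeric bins and 0.612% of arm bins lay in a DMR, and 0.895% of all bins. Any 2 of these lists share the libraries of 1 genotype, so the 3 ratios are not independent of each other.

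CG DMRs were fewer and were also denser in the pericentromeres. Between mat nrpd1+/- and WT, 248 pericentromeric and 352 arm CG DMRs gave 10.1 per pericentromeric Mb and 5.42 per arm Mb, a ratio of 1.87 (1.58 to 2.20, adjusted p = 2.11e-13, exact binomial test). They took up 0.360% of pericentromeric bins and 0.183% of arm bins, against 0.231% of all retained bins. Between pat nrpd1+/- and WT, 276 pericentromeric and 431 arm CG DMRs gave 11.2 per pericentromeric Mb and 5.13 per arm Mb, a ratio of 2.19 (1.88 to 2.55, adjusted p = 1.93e-22, exact binomial test), with 0.416% of pericentromeric bins, 0.186% of arm bins and 0.238% of all bins in a DMR. Between mat nrpd1+/- and pat nrpd1+/- there were 521 pericentromeric CG DMRs and 660 on the arms, or 21.3 per pericentromeric Mb and 10.2 per arm Mb, a ratio of 2.09 (1.86 to 2.35, adjusted p = 1.60e-34, exact binomial test). DMRs held 0.788% of pericentromeric bins and 0.363% of arm bins in that list, and 0.479% of all bins. The densest CG list was thus the direct comparison of both heterozygotes.

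Over all DMRs the pericentromeric excess was larger for CHH than for CG. The CHH ratio was 1.49 times the CG ratio for mat nrpd1+/- against WT (adjusted p = 5.55e-05, Fisher's exact test), 1.23 times for pat nrpd1+/- against WT (adjusted p = 0.0246) and 1.29 times for mat nrpd1+/- against pat nrpd1+/- (adjusted p = 0.000770). Among DMRs longer than 1 window the contrast did not pass in any comparison, at 1.11 times for mat nrpd1+/- against WT, 0.989 times for pat nrpd1+/- against WT and 1.04 times for mat nrpd1+/- against pat nrpd1+/- (adjusted p = 0.946 in each, Fisher's exact test). It did not pass among the DMRs of larger difference either, nor, for pat nrpd1+/- against WT, with wider pericentromeres (1.07 times), without chromosome 1 (1.15 times) or without chromosome 4 (1.16 times). The lists do not give methylation levels or which windows had enough reads. Whether pericentromeres and arms differed in either was therefore not tested, and no density is corrected for them. In all these tests regions are the units and are treated as independent of each other, which was not tested. A p-value describes the pooled lists, not how a genotype would repeat.

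**Figure D1:**
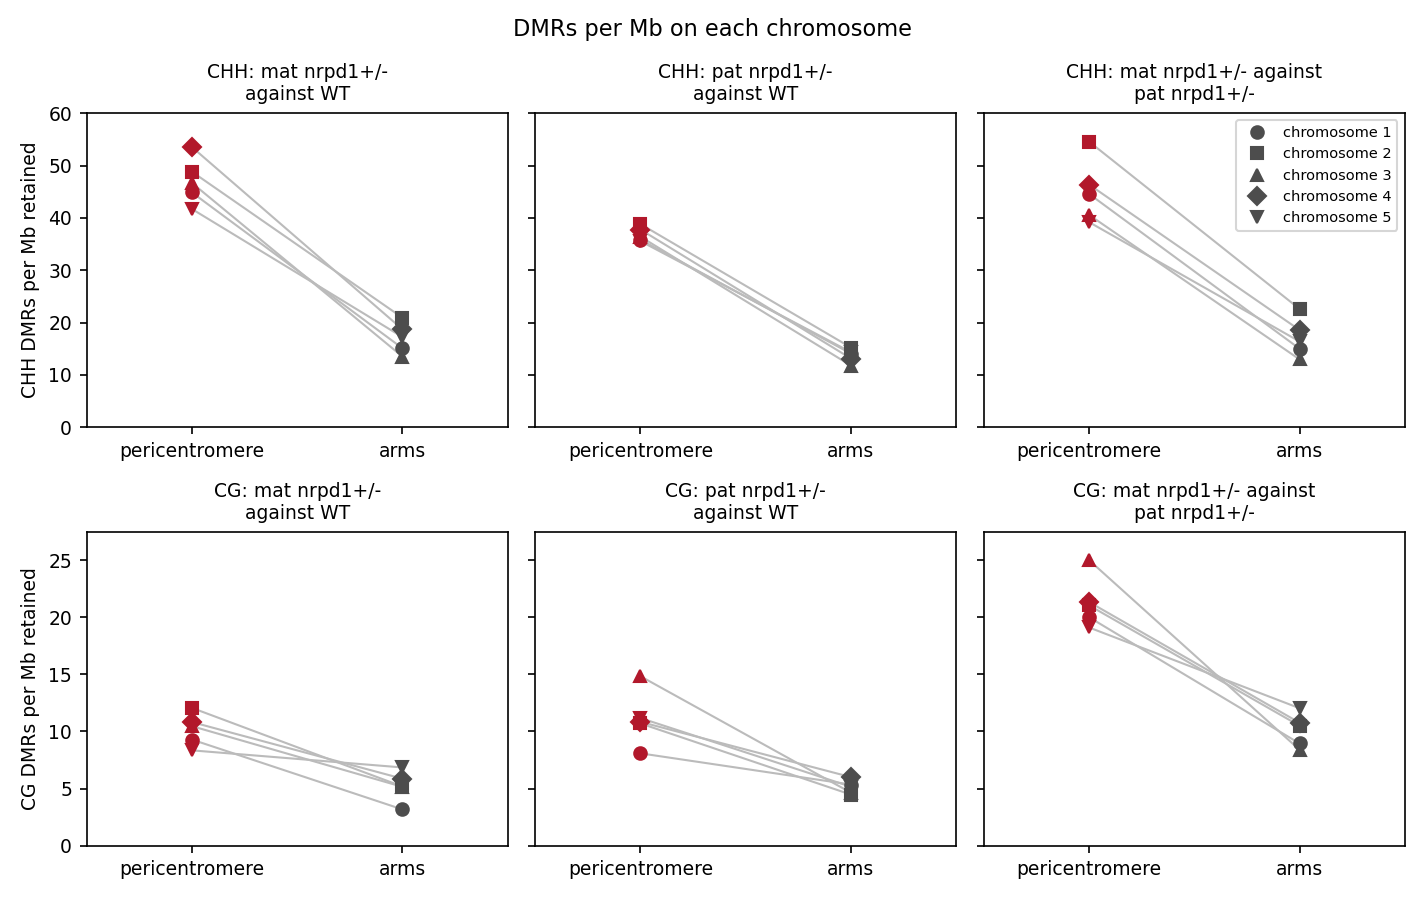
DMRs per Mb of retained sequence in the pericentromere (red) and on the arms (grey) of each of the 5 chromosomes, joined by a line, for CHH DMRs (top) and CG DMRs (bottom) in the 3 comparisons. Every line falls towards the arms, least steeply for chromosome 5 in the CG list of mat nrpd1+/- against WT (8.34 per Mb in the pericentromere and 6.85 per Mb on the arms).

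Each chromosome showed the same order of densities. For CHH DMRs of mat nrpd1+/- against WT, the pericentromeres of chromosomes 1 to 5 held 44.9, 48.8, 46.7, 53.6 and 41.7 per Mb, against 15.1, 20.9, 13.5, 18.7 and 17.2 per Mb on their arms. The ranges of pericentromeres and arms did not overlap, and the ratio was lowest on chromosome 2 (2.33) and highest on chromosome 3 (3.46). CHH DMRs of pat nrpd1+/- against WT were spread more evenly, with 35.6 to 38.8 per Mb in the 5 pericentromeres and 11.8 to 15.2 per Mb on the arms. Those of mat nrpd1+/- against pat nrpd1+/- ranged over 39.2 to 54.6 per Mb in pericentromeres, highest on chromosome 2, and over 13.0 to 22.6 per Mb on the arms. In the CG lists the 95% interval of the ratio lay above 1 on 5 of 5 chromosomes, except in mat nrpd1+/- against WT, where it did on 4 and the ratio of chromosome 5 was 1.22 (0.854 to 1.72). Chromosome 3 had the highest CG ratio in pat nrpd1+/- against WT (3.20) and in mat nrpd1+/- against pat nrpd1+/- (2.98).

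Members were spread over most of the retained pericentromere rather than held in a few places. Of 253 pericentromeric 100-kb bins with at least 50% retained sequence, 11 held no CHH DMR of mat nrpd1+/- against WT, and the median was 4 per bin (quartiles 2 and 6). On the arms 161 of 650 such bins held none, and the median was 1. For pat nrpd1+/- against WT 4 of 251 pericentromeric bins were empty, against 257 of 846 arm bins. CG DMRs of mat nrpd1+/- against WT were missing from 100 of 253 pericentromeric bins and 388 of 650 arm bins. The most crowded pericentromeric bin, chr1:16300001-16400000, held 15 CHH DMRs of mat nrpd1+/- against pat nrpd1+/-, of which 9 were lower and 6 higher in mat nrpd1+/-. Neighbouring members could thus differ in opposite directions.

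**Figure D2:**
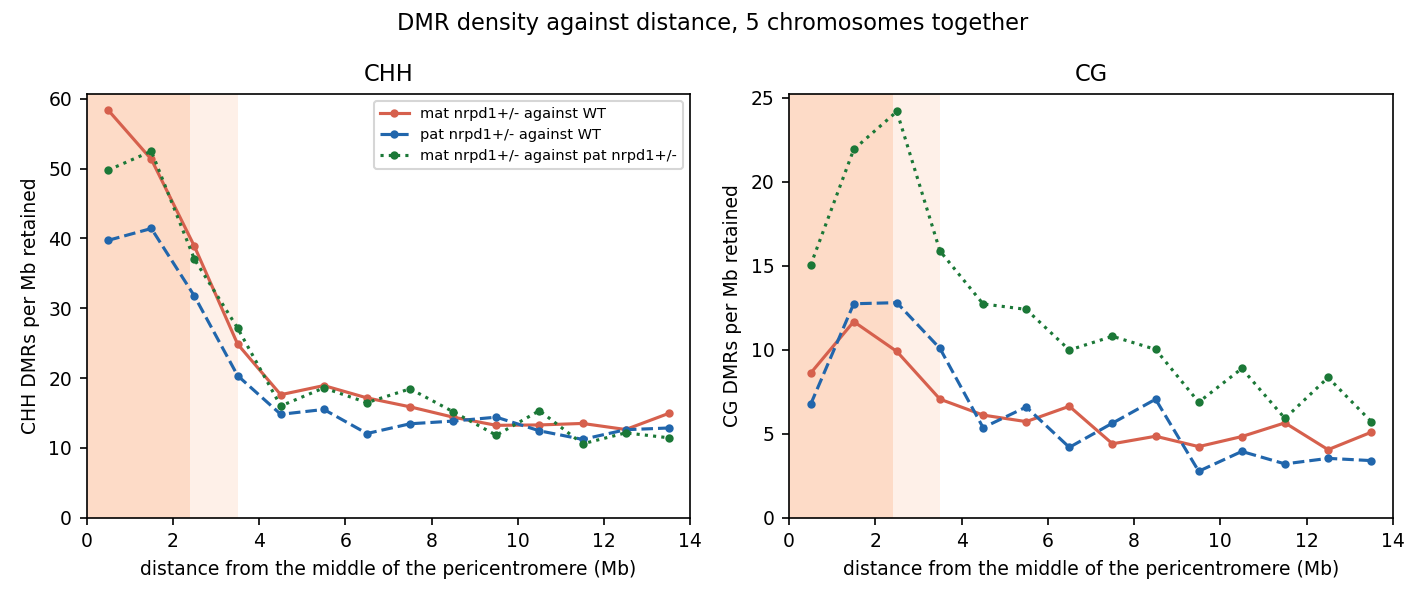
DMRs per Mb of retained sequence in steps of 1 Mb from the middle of the pericentromere, over 5 chromosomes together, for CHH (left) and CG (right). Dark shading reaches the end of the shortest pericentromere (2.4 Mb from the middle) and light shading that of the longest (3.5 Mb). CHH DMRs are densest in the first 2 steps, and CG DMRs in the second or the third.

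CHH and CG DMRs had different profiles inside the pericentromere. CHH DMRs of mat nrpd1+/- against WT had 58.4 per Mb within 1 Mb of the middle, 51.3 at 1 to 2 Mb, 38.9 at 2 to 3 Mb and 24.9 at 3 to 4 Mb, and 12.6 to 18.9 per Mb in each step beyond 4 Mb. CHH DMRs of pat nrpd1+/- against WT had 39.7, 41.4, 31.7 and 20.4 per Mb in the first 4 steps. CG DMRs were less dense in the innermost step than in the next in each list. Those of mat nrpd1+/- against pat nrpd1+/- had 15 per Mb within 1 Mb, 21.9 at 1 to 2 Mb, 24.2 at 2 to 3 Mb and 15.9 at 3 to 4 Mb. In pat nrpd1+/- against WT the CG density was 6.75 per Mb in the innermost step and 12.7 in the next, from 36 and 111 DMRs. These profiles are descriptions and were not tested.

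The boundary of the pericentromere was no sharp edge. In the outermost 0.5 Mb inside it, CHH DMRs of mat nrpd1+/- against WT had 31.1 per Mb, and in the first 0.5 Mb outside it 23.1 per Mb. In pat nrpd1+/- against WT these densities were 28.6 per Mb inside and 19.1 per Mb outside, and in mat nrpd1+/- against pat nrpd1+/- 34.4 per Mb inside and 26.4 per Mb outside. CG DMRs of pat nrpd1+/- against WT had 11.1 per Mb just inside and 11.3 per Mb just outside, whereas those of mat nrpd1+/- against pat nrpd1+/- had 24.3 per Mb inside and 16.4 per Mb outside. For CG in mat nrpd1+/- against WT they were 8.94 per Mb inside and 7.63 per Mb outside. The first 0.5 Mb of arm therefore exceeded the mean arm density in each of the 6 lists.

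Both losses and gains of methylation were denser in pericentromeres. In mat nrpd1+/- against WT, 607 pericentromeric CHH DMRs were lower and 537 higher in mat nrpd1+/-, which is 24.8 lower and 21.9 higher per Mb. The arms had 7.86 lower and 8.91 higher per Mb, so the density ratio was 3.15 for losses and 2.46 for gains. Over all retained bins 0.453% lay in a lower and 0.456% in a higher CHH DMR. The hypomethylated share was 53.1% in pericentromeres and 46.9% on arms, 6.18 percentage points apart (adjusted p = 0.0120, Fisher's exact test), and it was the higher in the pericentromere on 5 of 5 chromosomes. The difference did not pass at 0.05 without chromosome 4 (5.25 points, adjusted p = 0.0871, Fisher's exact test), nor among DMRs of at least 15 points (3.5 points, adjusted p = 0.414) or longer than 1 window (7.85 points, adjusted p = 0.0614).

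For pat nrpd1+/- against WT, 510 pericentromeric CHH DMRs were lower and 394 higher in pat nrpd1+/-, at ratios to the arms of 2.83 for losses and 2.52 for gains. The background was 0.383% of bins in a lower and 0.318% in a higher DMR. The hypomethylated share was 56.4% (95% interval 53.1 to 59.7) in pericentromeres and 53.6% (50.6 to 56.5) on arms, and this difference did not pass the test (2.86 points, adjusted p = 0.369, Fisher's exact test). Between mat nrpd1+/- and pat nrpd1+/-, 516 pericentromeric CHH DMRs were lower and 579 higher in mat nrpd1+/-, beside 0.411% of all bins in a lower and 0.485% in a higher DMR. The share lower in mat nrpd1+/- was 47.1% in pericentromeres and 46.0% on arms (1.16 points, adjusted p = 0.606, Fisher's exact test).

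**Figure D3:**
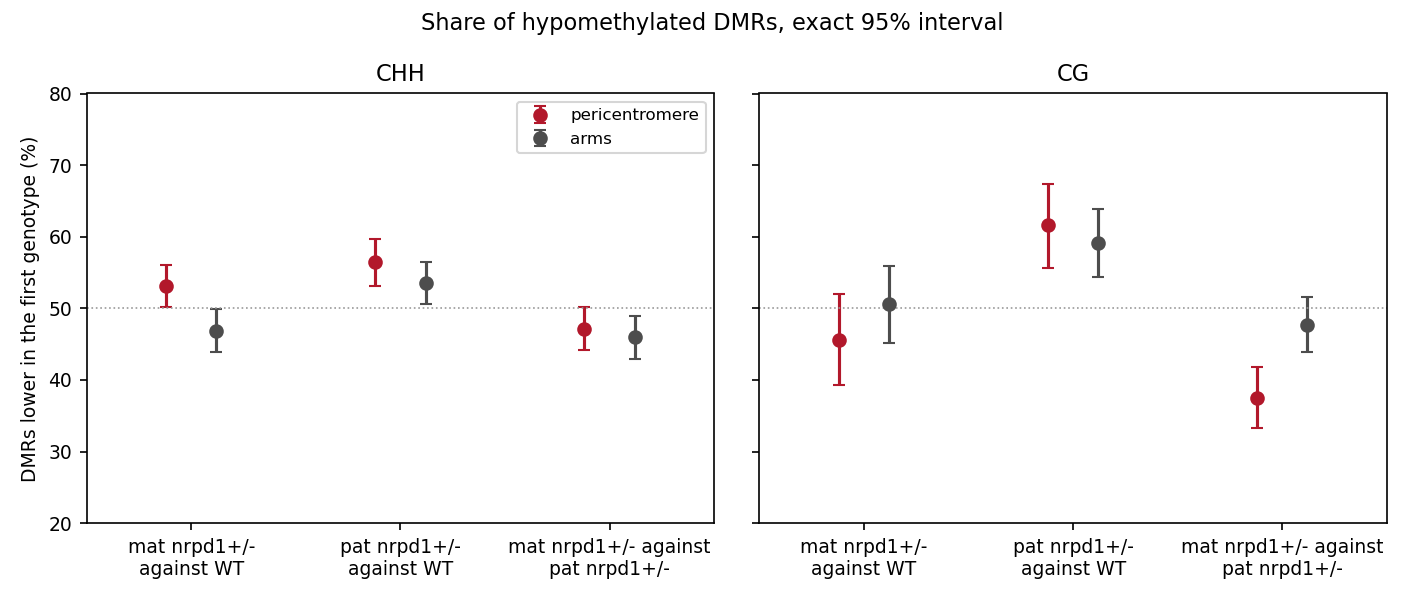
Share of DMRs in which the first genotype of the comparison was the less methylated, in pericentromeres (red) and on arms (grey), with exact 95% intervals, for CHH (left) and CG (right). The dotted line marks 50%. Pericentromere and arms are furthest apart in the CG list of mat nrpd1+/- against pat nrpd1+/-, at 37.4% in pericentromeres and 47.7% on arms.

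CG DMRs between mat nrpd1+/- and pat nrpd1+/- were tilted towards higher methylation in mat nrpd1+/- in the pericentromeres. There, 195 were lower and 326 higher in mat nrpd1+/-, at 7.97 lower and 13.3 higher per Mb, while the arms had 4.86 lower and 5.32 higher per Mb. Over all retained bins 0.203% lay in a lower and 0.276% in a higher DMR. The share lower in mat nrpd1+/- was 37.4% in pericentromeres and 47.7% on arms, a difference of -10.3 points (adjusted p = 0.00234, Fisher's exact test), and it was lower in the pericentromere on 5 of 5 chromosomes (33.7% to 45.1%). Among DMRs of at least 40 points the difference was -12.3 points (adjusted p = 0.0520, Fisher's exact test), and among those longer than 1 window -12.2 points (adjusted p = 0.0547).

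In the comparisons with WT no difference in this share between pericentromeres and arms passed the test. Pericentromeric CG DMRs of mat nrpd1+/- against WT were 113 lower and 135 higher in mat nrpd1+/-, beside 0.111% of all bins in a lower and 0.120% in a higher DMR. Their hypomethylated share was 45.6% (39.3 to 52.0), against 50.6% (45.2 to 55.9) on arms (adjusted p = 0.369, Fisher's exact test). Those of pat nrpd1+/- against WT were 170 lower and 106 higher in pat nrpd1+/-, beside 0.146% of all bins in a lower and 0.0922% in a higher DMR. The hypomethylated share was 61.6% (55.6 to 67.4) in pericentromeres and 59.2% (54.4 to 63.8) on arms (adjusted p = 0.606, Fisher's exact test). Losses thus outnumbered gains in both places in that list.

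**Figure D4:**
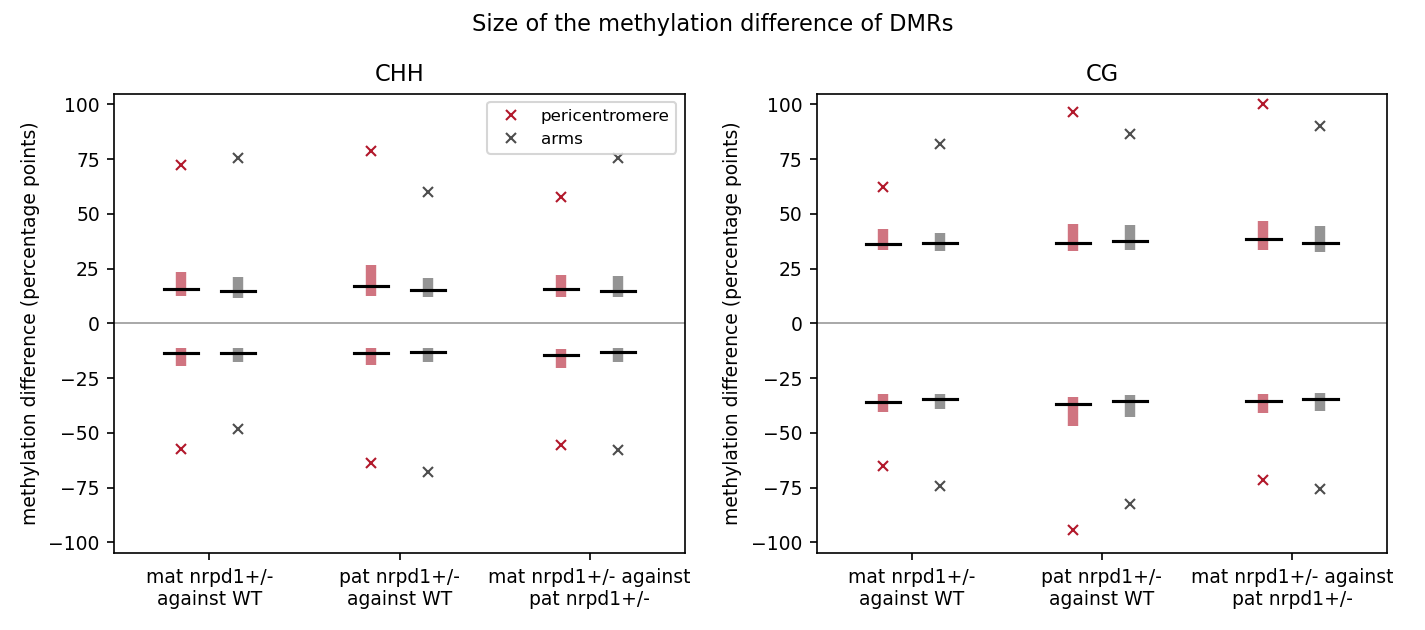
Methylation difference of DMRs in percentage points, negative where the first genotype of the comparison was lower, in pericentromeres (red) and on arms (grey). Bars span the quartiles, black lines are medians and crosses the most extreme DMR. Medians of CHH DMRs lie near 15 points and those of CG DMRs near 36 points in both places, and the crosses reach 100 points in the CG list of mat nrpd1+/- against pat nrpd1+/-.

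Most members changed by little more than the threshold at which they were called, 10 points for CHH and 30 points for CG. The median pericentromeric CHH loss in mat nrpd1+/- was -13.6 points and the median gain 15.5 points, against -13.6 points for losses and 14.6 points for gains on arms. Large differences took a greater share of pericentromeric CHH DMRs. Of the losses in mat nrpd1+/-, 60 of 607 (9.88%) reached 30 points in the pericentromeres and 4.89% on the arms, and of the gains 13.6% did so in the pericentromeres and 8.98% on the arms. In pat nrpd1+/- against WT, 19.5% of pericentromeric gains and 11% of arm gains were that large, as were 8.24% of pericentromeric losses and 6.48% of arm losses. Between mat nrpd1+/- and pat nrpd1+/-, DMRs lower in mat nrpd1+/- were that large in 12.2% of pericentromeric and 5.05% of arm cases. For those higher in mat nrpd1+/- the shares were nearly equal, at 11.7% in pericentromeres and 11.5% on arms. For CG DMRs, 18.8% of pericentromeric losses in pat nrpd1+/- reached 50 points, against 11.8% on arms, while gains did so in 17% in both places. The median length was 300 bp, the size of 1 window, in every list and place. CHH members were a single window in 55.9% to 58.2% of cases, against 54.3% to 59.9% on arms. CG members were a single window less often than those on arms, with 66.5% in pericentromeres and 76.1% on arms for mat nrpd1+/- against WT, 55.1% and 62.4% for pat nrpd1+/- against WT, and 58.3% and 65.3% for mat nrpd1+/- against pat nrpd1+/-. The CG density ratio of mat nrpd1+/- against WT was 2.62 among DMRs longer than 1 window and 1.87 over all. These sizes and single-window shares were not tested.

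The members with the most extreme differences lay mostly outside annotated genes. The nearest feature was a pseudogene for some and a protein-coding gene for others. Of the pericentromeric bases retained in mat nrpd1+/- and WT, 47.4% lay in no annotated gene and 25.9% in pseudogenes. Whether these members differed from other pericentromeric sequence in this was not tested. The largest CHH loss of mat nrpd1+/- from WT, at chr2:3134301-3134600, was -57.2 points, 511 bp upstream of the pseudogene AT2G07520. An overlapping DMR, chr2:3134401-3134800, was -52.0 points in pat nrpd1+/- against WT and 37.1 points in mat nrpd1+/- against pat nrpd1+/-. How the difference of a merged DMR was taken from its windows is not given in the sources used here, so differences of separate comparisons are not added up. The largest pericentromeric CHH gain, at chr1:13659701-13660200, was 72.4 points in mat nrpd1+/- and, at chr1:13659801-13660200, 78.6 points in pat nrpd1+/-. It lay 479 bp upstream of the pseudogene AT1G36305. No DMR of mat nrpd1+/- against pat nrpd1+/- overlapped it. Both heterozygotes were thus higher than the same WT libraries at this place.

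The most negative pericentromeric CHH difference of pat nrpd1+/- from WT was -63.9 points, at chr5:14214401-14214800. The same interval was -35.5 points in mat nrpd1+/- against WT. It lay 1107 bp upstream of CYP716A2, which encodes a cytochrome P450 of the CYP716A family. The longest pericentromeric CHH DMR of mat nrpd1+/- against WT, the 1000 bp at chr5:14647501-14648500, was 30.2 points. Within it, chr5:14648101-14648500 was -58.6 points in pat nrpd1+/- against WT. The DMR of 1000 bp lay 1888 bp upstream of CHX24, a putative Na+/H+ antiporter. The only overlapping DMR of mat nrpd1+/- against pat nrpd1+/- was 28.6 points, at chr5:14647501-14648000, and none overlapped chr5:14648101-14648500. The longest pericentromeric CHH DMR of pat nrpd1+/- against WT, chr3:11244901-11245900, was -15.3 points, 849 bp upstream of AT3G29300.

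Between the heterozygotes, the most negative pericentromeric CHH DMR was -55.6 points at chr1:13261601-13262100, where mat nrpd1+/- was also -27.3 points from WT. It lay 6030 bp upstream of PUM10, a Pumilio RNA-binding protein, and 2206 bp upstream of the pseudogene AT1G35760. The most positive pericentromeric one was 57.8 points at chr4:2862101-2862700, 614 bp downstream of the pseudogene AT4G05583, and no DMR against WT overlapped it. The longest, 1100 bp at chr2:5433201-5434300, was 28.2 points and overlapped a region that varied between the WT libraries, and such regions were excluded from both lists against WT.

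Among pericentromeric CG DMRs of mat nrpd1+/- against WT, the largest loss was -65.4 points at chr4:5539101-5539600, 790 bp upstream of AT4G08670. No other list held a DMR there. The largest pericentromeric gain, 62.2 points at chr4:1657201-1658500, was also the longest pericentromeric CG DMR of this list, at 1300 bp. It overlapped the pseudogene AT4G03732 by 180 bp, held 86 cytosines in CG context, both strands counted, and overlapped a DMR of 51.3 points in mat nrpd1+/- against pat nrpd1+/-. This gain was absent from the list of pat nrpd1+/- against WT.

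The most extreme CG differences of pat nrpd1+/- from WT were larger. The most negative, -94.3 points at chr5:9601301-9601800, overlapped AT5G27247, annotated as coding for a small protein, by 147 bp and the pseudogene AT5G27250 by 128 bp. The same interval was 88.6 points higher in mat nrpd1+/- than in pat nrpd1+/-. The most positive, 96.6 points at chr5:14012701-14013300, lay 852 bp downstream of PHYC, which encodes the photoreceptor phytochrome C, and chr5:14012601-14013300 was -41.4 points in mat nrpd1+/- against pat nrpd1+/-. The longest pericentromeric CG DMR of pat nrpd1+/- against WT was -48.2 points at chr3:17140801-17141800. It lay 1218 bp downstream of TIM9, a component of the mitochondrial protein import machinery. A DMR at chr3:17140801-17141900 was 85.2 points in mat nrpd1+/- against pat nrpd1+/-. At all 3 places the mat nrpd1+/- against WT list held no DMR.

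The comparison of mat nrpd1+/- with pat nrpd1+/- gave the most extreme CG value, 100 points at chr3:16682401-16682800, between AT3G45470 and AT3G45480. The same interval was -86.0 points in pat nrpd1+/- against WT. The most negative pericentromeric CG DMR was -71.6 points at chr4:5987801-5988300, where pat nrpd1+/- was 78.9 points above WT. It lay inside the pseudogene AT4G09455 and 4607 bp upstream of MYB6, a MYB DNA-binding protein. The longest pericentromeric CG DMR, 1100 bp at chr3:10979301-10980400, was -30.7 points, and mat nrpd1+/- was -32.9 points from WT over the same interval. It also held a CHH DMR of -12.4 points in mat nrpd1+/- against WT and another of 23.0 points in pat nrpd1+/- against WT.

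**Figure D5:**
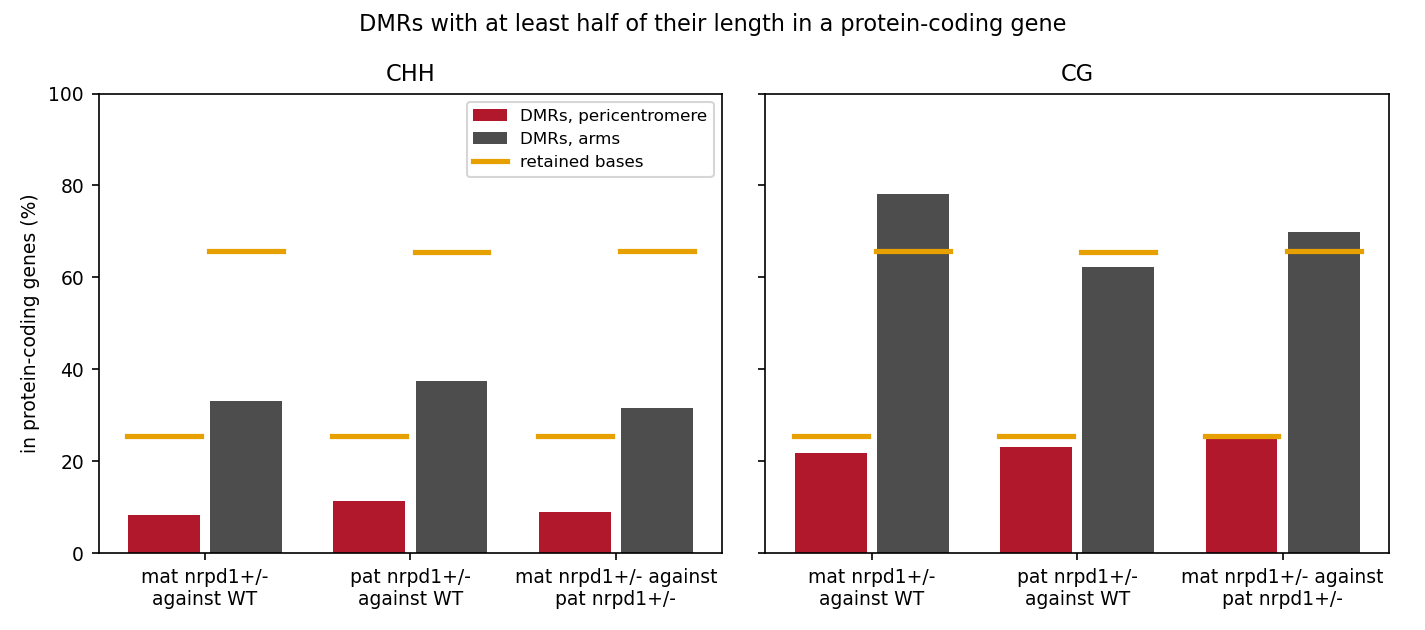
Share of DMRs with at least 50% of their length in a protein-coding gene, in pericentromeres (red bars) and on arms (grey bars), for CHH (left) and CG (right). Yellow lines give the share of retained bases in such genes. The CHH bars lie below their lines in both places, and the CG bars reach or pass their lines on the arms only in the comparisons that include mat nrpd1+/-.

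Pericentromeric CHH members lay in protein-coding genes less often than the retained bases did, and CG members about as often. In RefSeq, protein-coding genes covered 25.5% of the pericentromeric bases retained in mat nrpd1+/- and WT, and 65.8% of those on arms. At least 50% of the length lay in such a gene for 8.39% of pericentromeric and 33.0% of arm CHH DMRs of mat nrpd1+/- against WT. Between pat nrpd1+/- and WT these shares were 11.4% in pericentromeres and 37.5% on arms, and in mat nrpd1+/- against pat nrpd1+/- they were 9.04% in pericentromeres and 31.6% on arms. CHH DMRs were thus below the share of retained bases in both places. For CG DMRs the shares were 21.8% in pericentromeres and 78.1% on arms for mat nrpd1+/- against WT, 23.2% in pericentromeres and 62.2% on arms for pat nrpd1+/- against WT, and 24.8% in pericentromeres and 69.8% on arms for mat nrpd1+/- against pat nrpd1+/-. Pericentromeric CG DMRs were therefore near the share of retained bases. On arms CG DMRs of mat nrpd1+/- against WT were above it, and those of the other comparisons were within 5 points of it.

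Pseudogenes as annotated by RefSeq covered 25.9% of retained pericentromeric bases and 2.23% of arm bases in mat nrpd1+/- against WT. At least 1 bp of a pseudogene was overlapped by 317 of 1144 pericentromeric CHH DMRs (27.7%) and 5.41% of arm CHH DMRs in that comparison, and by 25% of pericentromeric and 5.4% of arm CG DMRs. By the rule of 50% of the length it was 21.2% of pericentromeric and 4.22% of arm CHH DMRs. The sequence within 1 kb upstream of a protein-coding gene was touched by 16.0% of pericentromeric and 47.2% of arm CHH DMRs of mat nrpd1+/- against WT, where it made up 11.7% of pericentromeric and 25.2% of arm retained bases. With at least 50% of the length in such sequence the shares were 12.7% in pericentromeres, near that of bases, and 37.2% on arms. No annotated gene of any kind was touched by 58.7% of pericentromeric CHH DMRs, against 46.5% on arms, where 47.4% of pericentromeric and 30.8% of arm retained bases lay in no gene. By midpoint, 3383 protein-coding genes lay in the pericentromeres, in retained sequence or not. Pericentromeric CHH DMRs overlapped 135 protein-coding genes for mat nrpd1+/- against WT, 139 for pat nrpd1+/- against WT and 136 for mat nrpd1+/- against pat nrpd1+/-. Pericentromeric CG DMRs overlapped 61 for mat nrpd1+/- against WT, 78 for pat nrpd1+/- against WT and 154 for mat nrpd1+/- against pat nrpd1+/-. Genes overlapped by arm DMRs were not counted. Transposable element annotation was not used here.

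The base composition of members differed between the places. Pericentromeric CHH DMRs had a median GC content of 32.0% in each of the 3 lists, and those on arms 28.6% to 29.6%, whereas retained sequence had 35.6% in pericentromeres and 36% on arms. CG DMRs went the other way, with medians of 33.3% to 34.0% in pericentromeres and 35.5% to 36.7% on arms. Cytosines in CG context, both strands counted, were more frequent in pericentromeric than in arm members, at a median of 3.5 per 100 bp in pericentromeres and 2.8 on arms for CHH DMRs of mat nrpd1+/- against WT. For its CG DMRs it was 4 in pericentromeres and 2.67 on arms. All of these medians lay below retained sequence, which had 4.63 per 100 bp in pericentromeres and 4.67 on arms. Lower-case sequence in RefSeq, which marks repeats and low-complexity stretches, made up a median of 34.3% of pericentromeric and 37.1% of arm CHH DMRs in that comparison, against 26.3% of pericentromeric and 19.3% of arm retained bases. Its CG DMRs had medians of 22.4% in pericentromeres and 13.0% on arms. CHH members were thus poorer in GC and richer in lower-case sequence than the retained sequence around them.

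A CG DMR of the same comparison overlapped 15 of 1144 pericentromeric CHH DMRs of mat nrpd1+/- against WT (1.31%), 13 of 904 of pat nrpd1+/- against WT (1.44%) and 21 of 1095 of mat nrpd1+/- against pat nrpd1+/- (1.92%). On the arms the share was 1.01% for mat nrpd1+/- against WT, 1.48% for pat nrpd1+/- against WT and 2.23% for mat nrpd1+/- against pat nrpd1+/-. Of the 13 in pat nrpd1+/- against WT, 11 were lower in both contexts and 0 higher in both. In mat nrpd1+/- against WT 9 were lower and 3 higher in both, and in mat nrpd1+/- against pat nrpd1+/- 4 of 21 were lower and 11 higher. On the arms 15 of 17 in pat nrpd1+/- against WT were lower and 0 higher in both. Seen from the CG side, 6.05% of pericentromeric CG DMRs of mat nrpd1+/- against WT, 4.71% of pat nrpd1+/- against WT and 4.03% of mat nrpd1+/- against pat nrpd1+/- overlapped a CHH DMR, while CHH DMRs held 1.71%, 1.36% and 1.65% of pericentromeric bins in these comparisons. CG DMRs held 0.360%, 0.416% and 0.788% of them. A shared base counts as an overlap here, which is easier to meet than membership of a bin, and the overlap was not tested.

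Regions that differed between the 2 libraries of 1 genotype, listed separately by the authors and excluded from DMRs, give a measure of replicate variation in the same places. Variable CHH regions were denser in the pericentromeres too, at 98.1 per Mb in mat nrpd1+/-, 80.8 in pat nrpd1+/- and 72.3 in WT, against 50.4 in mat nrpd1+/-, 40.3 in pat nrpd1+/- and 36.4 in WT on arms. Their ratios were 1.95 (1.85 to 2.05) in mat nrpd1+/-, 2.01 (1.90 to 2.12) in pat nrpd1+/- and 1.99 (1.88 to 2.11) in WT. Variable CHH regions were denser than CHH DMRs, which had 36.8 to 46.7 per Mb in pericentromeres and 13.7 to 16.8 on arms. The former compare single libraries and the latter pooled ones, so the 2 densities are not on the same footing. Variable CG regions were sparser in the pericentromeres, with 4.14 per Mb in mat nrpd1+/-, 1.55 in pat nrpd1+/- and 0.680 in WT, against 7.39 in mat nrpd1+/-, 2.12 in pat nrpd1+/- and 1.33 in WT on arms. These CG ratios were 0.560 (0.448 to 0.694) in mat nrpd1+/-, 0.729 (0.502 to 1.04) in pat nrpd1+/- and 0.512 (0.288 to 0.858) in WT, so variable CG regions and CG DMRs lay on opposite sides of 1, except that the interval for pat nrpd1+/- included 1. The part of replicate variation in the CHH DMR densities was not tested. A variable CHH region of the genotype not compared overlapped 15.7% of pericentromeric CHH DMRs of mat nrpd1+/- against WT, 22.8% of those of pat nrpd1+/- against WT and 13.7% of those of mat nrpd1+/- against pat nrpd1+/-. The arms had 21.7% for mat nrpd1+/- against WT, 28.5% for pat nrpd1+/- against WT and 18.1% for mat nrpd1+/- against pat nrpd1+/-.

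Of 12 genes for the methylation machinery, namely NRPD1, NRPE1, RDR2, DCL3, AGO4, DRM2, CMT2, CMT3, MET1, DDM1, ROS1 and DME, 1 lay in a pericentromere. This was DCL3, the Dicer-like enzyme that cuts Pol IV transcripts, at chr3:15753387-15760859. A CG DMR inside it, chr3:15754501-15754800, was 33.9 points higher in pat nrpd1+/- than in WT, and another, chr3:15754601-15755000, was -37.0 points in mat nrpd1+/- against pat nrpd1+/-. Neither a CG DMR of mat nrpd1+/- against WT nor a CHH DMR lay within 1 kb of DCL3. Of all pericentromeric 100-kb bins with at least 50% retained, the one that holds DCL3, chr3:15700001-15800000, was the most crowded with CG DMRs in both comparisons that include pat nrpd1+/-. It held 6 of pat nrpd1+/- against WT, 3 lower and 3 higher, and 10 of mat nrpd1+/- against pat nrpd1+/-, 5 lower and 5 higher. The median pericentromeric bin held 1 for pat nrpd1+/- against WT and 2 for mat nrpd1+/- against pat nrpd1+/-. An arm bin, chr4:9500001-9600000, held 9 in each of these comparisons. RDR2, the polymerase that makes Pol IV transcripts double-stranded, lay 0.480 Mb outside the pericentromere of chromosome 4.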

How the data were processed

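Endosperm DNA of 6 libraries, 2 for each of 3 genotypes, was bisulfite-sequenced. The authors trimmed reads with Trim Galore, aligned them to TAIR10 with Bismark (versions not given in the sources used here), pooled both libraries of a genotype and compared 300-bp windows, moved in steps of 100 bp, with at least 3 shared cytosines and 6 reads per cytosine. Windows that differed by 10 (CHH) or 30 (CG) percentage points were merged into DMRs. The authors deposited these lists, lists of regions that varied between libraries, and the fraction of maternal reads of each retained region, limited to 67 ± 15%. How the difference of a merged DMR was taken from its windows is not given in the sources used here. In the CHH list of pat nrpd1+/- against WT the header names the column that holds the length, and the next column was used. No list gives read numbers, so no interval for a difference or floor could be set, and reads amplified by PCR are not independent molecules.

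Densities were computed in 100-bp bins retained in both genotypes compared (Python 3.11.15, scipy 1.17.1). Pericentromere and arms were compared with two-sided exact binomial tests, and directions with two-sided Fisher's exact tests, each adjusted by the Benjamini-Hochberg method over 6 lists. Intervals are exact (Clopper-Pearson) and cover the counting of regions only. Like the tests, they treat regions as independent, so they can be too narrow where DMRs lie in groups. The contrast of CHH with CG ratios, adjusted over 3 comparisons, and its alternatives, the 100-kb bins and the values at DCL3 were added after the data were examined. The tests were run on simulated regions drawn independently of each other, unlike merged DMRs, so this checked the calculation only. Named members are, in each list, the most negative, the most positive and the longest pericentromeric DMR, with the overlapped or nearest RefSeq genes (TAIR10.1, whose nuclear chromosome lengths hold all regions, with 0 past an end). A DMR overlapped a gene when they shared at least 1 bp, or 50% of the DMR where stated. Alternatives were a stricter difference, DMRs longer than 1 window, boundaries moved by 0.5 Mb, other denominators and leaving out each chromosome. Organelle regions were left out. The members and lists were chosen with earlier results of these data known.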

Additional observations from a re-analysis of the deposited data

How the results depend on the processing

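The pericentromeric excess of DMRs kept its direction and passed its test wherever one was run under each of the 78 alternatives to the 6 density ratios, which lay between 1.76 and 3.08. Of the 60 alternatives to the 6 differences in hypomethylated share, 55 kept their side of the threshold. Many of the 55 did so by not passing, in lists whose difference passed in no setting. The CHH difference of mat nrpd1+/- against WT passed in 7 of 10 alternatives. The CG difference of mat nrpd1+/- against pat nrpd1+/- passed in 8 of 10. The 5 alternatives that changed side kept their direction and no longer passed. For CHH DMRs of mat nrpd1+/- against WT these were 7.85 points among DMRs longer than 1 window, 3.5 points among DMRs of at least 15 points and 5.25 points without chromosome 4. For CG DMRs of mat nrpd1+/- against pat nrpd1+/- these were -12.2 points among DMRs longer than 1 window and -12.3 points among DMRs of at least 40 points. Each of these 5 uses fewer DMRs, and the part of this in the result was not tested. The CHH differences of 3.5 and 5.25 points were also smaller than the 6.18 points over all DMRs. The CHH ratio over the CG ratio, tried under 33 alternatives chosen after seeing the data, passed in 24. Among DMRs longer than 1 window it was 1.11 for mat nrpd1+/- against WT, 1.04 for mat nrpd1+/- against pat nrpd1+/- and 0.989, the only change of direction, for pat nrpd1+/- against WT. Under the stricter difference it was 1.41, 1.15 and 1.21 in the same comparisons. For pat nrpd1+/- against WT it also failed with the pericentromere widened (1.07), without chromosome 1 (1.15) and without chromosome 4 (1.16). The share difference of CG DMRs of mat nrpd1+/- against WT, which passed no test, was -5.00 points over all DMRs. It changed direction without chromosome 2, to 0.73 points.

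No paired analysis was possible because the lists pool both libraries of a genotype, and no replicate was left out for the same reason. Counts of regions limit the precision of the CG lists most, with 248 pericentromeric DMRs in the smallest. Read depth, methylation levels and the windows that had enough reads were not analysed here.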
